A study of Mus musculus with 13 samples.

Results

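The genes described here are 9 genes of cation entry into the cell: the transient receptor potential (TRP) channel genes Trpc1, Trpc6, Trpm4, Trpm7 and Trpv2, the store-operated entry genes Stim1 and Orai1, and the mechanically gated channel genes Piezo1 and Piezo2. They were chosen by name from the 55487 gene IDs of the count table, and 8 of the 9 passed the filter on low counts. RNA was compared between 3 libraries of sinoatrial pacemaker cells (PC), which start the heartbeat, and 3 libraries of right atrial cardiomyocytes (RACM), the muscle next to the node. Both were sorted by flow cytometry from neonatal mice, and the RNA samples of both groups have the genotype Hcn4-GFP/Myh6-mCherry, a pair of fluorescent reporters for a channel gene of the pacemaker current and a cardiac myosin gene. The sorting gates are not given in the labels. Each biological replicate began as a pool of node and atrium tissue from 8 to 10 hearts. The libraries are p0, p2 and p4 of each cell type, as in their titles, which do not say what the number means, and an age in days is not given for them; 3 values in a row below stand in this order.

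When the calcium store of a cell runs low, STIM proteins in the membrane of the endoplasmic reticulum sense it and open ORAI pores in the cell surface, which is known as store-operated calcium entry. TRPC channels open downstream of receptors coupled to phospholipase C, TRPM4 passes sodium and potassium when calcium inside the cell is high, and TRPM7 is a channel for magnesium, zinc and calcium that is fused to a kinase. TRPV2 and the Piezo proteins are known from responses to stretch, and membrane tension opens Piezo channels directly. In mouse, loss of Stim1 or of Trpm7 in the sinoatrial node has been reported to disturb its firing.

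Total counts lay between 18371816 and 22290996 in PC libraries and between 14141151 and 19555932 in RACM libraries. CPM below are counts relative to the scaled library total. The 6 pacemaker markers summed to between 3682 and 3892 CPM in PC and to between 69.3 and 98.2 CPM in RACM, and the 5 general cardiomyocyte markers to between 98435 and 108526 CPM in PC and to between 63805 and 93502 CPM in RACM, RACM p4 being lowest. The pacemaker sum includes the reporter gene Hcn4, at 2550, 2566 and 2719 CPM in PC libraries, and the cardiomyocyte sum the reporter gene Myh6. These sums are thus not independent of the reporters. The 10 macrophage markers summed to 28.3, 9.56 and 54.5 CPM in PC and to 176, 470 and 827 CPM in RACM. The 9 fibroblast markers summed to 850, 966 and 2183 CPM in PC and to 1608, 3697 and 10770 CPM in RACM. None of these macrophage or fibroblast markers was at 0 in all libraries of a cell type. RACM p4 had the highest sum of both lists and PC p4 the highest among PC libraries.

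Of the 8 genes tested, 1 rose and 2 fell in PC at an adjusted p below 0.05 (edgeR quasi-likelihood test, Benjamini-Hochberg over all genes tested). Among all 18015 genes tested 7.27% were called, 3.69% higher and 3.57% lower in PC. Stim1 rose, Trpm7 and Piezo1 fell, and Orai1, Piezo2, Trpv2, Trpc1 and Trpm4 did not pass. PC and RACM ranges of CPM were separate for 4 of the 8, namely the 3 called genes and Orai1, as they were for 26.9% of all genes tested. The median log2 fold change, PC minus RACM, was -0.37 over the 8 genes and 0.01 over all genes tested. In sorted bulk samples, fewer cells of a type and less RNA per cell cannot be told apart.

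**Figure D1:**
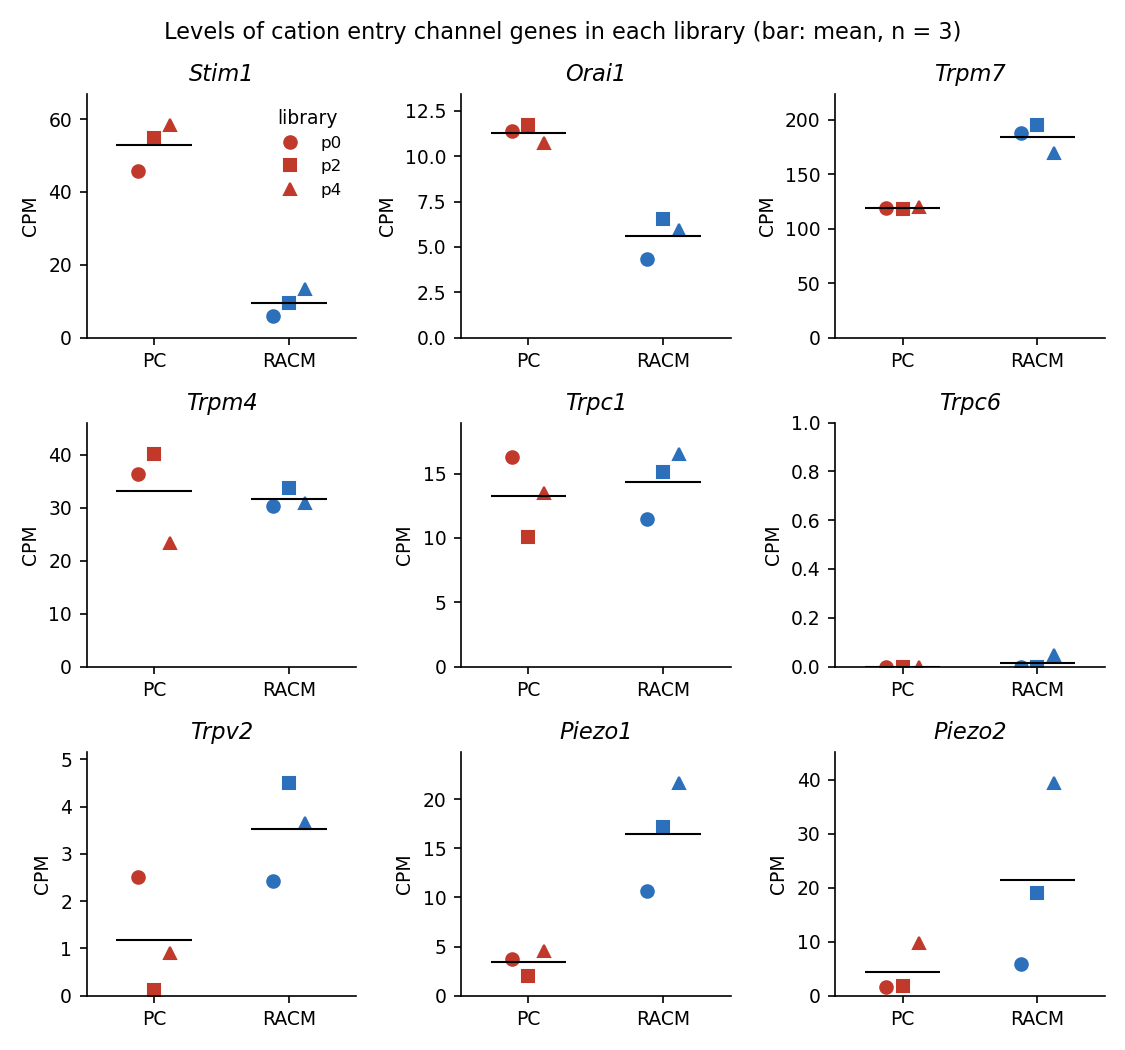
CPM of each of the 9 genes (vertical axes, linear and starting at 0) in the 3 PC libraries (red, left) and the 3 RACM libraries (blue, right); symbols mark the library number and black bars the mean. Stim1 lies between 45.9 and 58.3 CPM in PC and between 6.01 and 13.3 CPM in RACM, and Trpc6 lies at or near 0 in all 6 libraries.

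The sequences before the starts of the 3 called genes, and of Orai1 as the partner of Stim1, are shown because these genes carry the comparison. Each is the 250 bases before the gene's start in RefSeq (GRCm38.p6, the assembly behind mm10), read 5′ to 3′ on the gene's strand. Capitals mark matches, on either strand, to the GC box GGGCGG or the E-box CACGTG.
Stim1 (chr7:102267569-102267818, plus strand): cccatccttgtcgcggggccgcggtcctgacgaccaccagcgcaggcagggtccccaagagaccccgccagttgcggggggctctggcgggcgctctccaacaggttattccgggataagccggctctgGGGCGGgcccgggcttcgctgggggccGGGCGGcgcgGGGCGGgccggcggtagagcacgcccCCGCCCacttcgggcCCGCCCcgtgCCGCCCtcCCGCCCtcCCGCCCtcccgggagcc
Orai1 (chr5:123014824-123015073, plus strand): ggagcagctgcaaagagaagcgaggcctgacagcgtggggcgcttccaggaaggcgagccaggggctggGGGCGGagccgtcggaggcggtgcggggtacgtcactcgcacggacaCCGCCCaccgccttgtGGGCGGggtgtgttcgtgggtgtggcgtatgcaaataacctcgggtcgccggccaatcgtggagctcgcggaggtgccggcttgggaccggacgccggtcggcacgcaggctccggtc
Trpm7 (chr2:126876262-126876511, minus strand): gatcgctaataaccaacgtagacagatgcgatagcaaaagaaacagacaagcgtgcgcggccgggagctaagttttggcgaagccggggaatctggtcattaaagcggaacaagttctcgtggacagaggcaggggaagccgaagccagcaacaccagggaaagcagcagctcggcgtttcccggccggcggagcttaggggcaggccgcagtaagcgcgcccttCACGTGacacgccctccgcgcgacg
Piezo1 (chr8:122551330-122551579, minus strand): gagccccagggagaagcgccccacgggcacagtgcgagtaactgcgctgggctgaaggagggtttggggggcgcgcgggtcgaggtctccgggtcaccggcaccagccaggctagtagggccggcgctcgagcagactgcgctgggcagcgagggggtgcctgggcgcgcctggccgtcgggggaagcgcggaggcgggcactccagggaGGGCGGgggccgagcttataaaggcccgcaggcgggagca

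The Stim1 window held 8 GC boxes, the Orai1 window 3, the Piezo1 window 1 and the Trpm7 window 0, while 32.7% of all 32851 windows of this length held at least 1. The Trpm7 window held 1 E-box, a motif found in 6.02% of windows and searched for after these sequences were read. Neither the homeodomain palindrome TAATTA (4.84% of windows) nor the T-box half-site core GGTGTGA (3.33%) was found on either strand, which says only that these letters are not in these bases. CpG dinucleotides numbered 31 before Stim1, 30 before Orai1, 26 before Trpm7 and 26 before Piezo1, against a median of 6 over all windows. Windows were matched for 7 of the 9 genes. Among those not shown, the Trpc1 window held 3 GC boxes and 17 CpG, and the Trpc6 window 0 and 12. The windows of Trpv2 held 0 GC boxes and from 2 to 5 CpG. A link between these letters and the RNA levels was not tested.

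Stim1, the calcium sensor of the endoplasmic reticulum, had the smallest p of the 9 genes and was higher in PC. Stim1 (ENSMUSG00000030987, chromosome 7 from 102267806 to 102437319 in mm10, plus strand) had 45.9, 54.9 and 58.3 CPM in PC libraries, against 6.01, 9.51 and 13.3 CPM in RACM libraries. Every PC library lay above every RACM library. Mean levels were 53.1 ± 6.41 CPM in PC against 9.62 ± 3.66 CPM in RACM (SD, n = 3 each), a log2 fold change of 2.46 ± 0.29 (SE; 5.49-fold; edgeR adjusted p = 0.00166). These levels rest on 824, 971 and 1235 counts in PC and on 87, 159 and 277 counts in RACM, and Stim1 shares no exon bases with another gene. Stim1 stayed called under all 16 alternatives, with a log2 fold change from 2.22 to 3.13. The highest of these, 3.13 (edgeR adjusted p = 0.00230), was found without RACM p2 and p4, whose fibroblast and macrophage sums were highest. Within RACM, Stim1 was highest in p4, where those sums were also highest; their part in the RACM level was not tested.

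Orai1, the pore-forming subunit that STIM1 opens, lay in the same direction without passing the test. Orai1 (ENSMUSG00000049686, chromosome 5 from 123015074 to 123030456 in mm10, plus strand) had 11.4, 11.7 and 10.7 CPM in PC libraries, against 4.35, 6.52 and 5.92 CPM in RACM libraries. The ranges were separate, and the PC libraries differed little among themselves. Mean levels were 11.3 ± 0.484 CPM in PC against 5.60 ± 1.12 CPM in RACM (SD, n = 3 each), a log2 fold change of 1.01 ± 0.31 (SE; 95% interval from 0.32 to 1.70; edgeR adjusted p = 0.0885). DESeq2 called Orai1 (adjusted p = 0.0237), and called 12.8% of all genes.

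No relative of either gene was called. Stim2, the other STIM sensor, had 23.6, 20.1 and 20.9 CPM in PC libraries, against 16.9, 20.8 and 31.8 CPM in RACM libraries (log2 fold change -0.11, 95% interval from -0.69 to 0.48, edgeR adjusted p = 0.864). Orai3 had 20.4, 14.8 and 25.7 CPM in PC libraries, against 18.3, 17.9 and 18.9 CPM in RACM libraries (log2 fold change 0.15, 95% interval from -0.41 to 0.70, edgeR adjusted p = 0.801). For both, the PC and RACM ranges overlapped. Orai2 was low, with 0.725, 0 and 0.756 CPM in PC libraries and 0.760, 0.897 and 4.04 CPM in RACM libraries (edgeR adjusted p = 0.393).

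Per kilobase of exon, which allows levels of different genes to be set side by side, the Stim1 share of the STIM family was higher in each PC library. Stim1 was 49.1%, 57.5% and 58.0% of the summed level of Stim1 and Stim2 in PC, against 14.9%, 18.5% and 17.2% in RACM. PC thus held the STIM genes at similar levels, while Stim2 was the more abundant in each RACM library. This follows from the Stim1 difference given above and is not separate support for it. The share averaged 54.9% ± 5.02 in PC against 16.9% ± 1.79 in RACM (SD, n = 3 each; exact permutation p = 0.1, 2-sided, the smallest that 3 against 3 libraries can give). Summed, the STIM genes stood at 9.31 ± 0.346 CPM per kilobase in PC against 5.44 ± 1.85 in RACM (SD, n = 3 each).

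In the ORAI family, Orai3 was the most abundant per kilobase in all 6 libraries. Orai1 was 34.0%, 42.4% and 27.8% of the summed level of Orai1, Orai2 and Orai3 in PC, against 17.9%, 25.0% and 21.4% in RACM (n = 3 each; exact permutation p = 0.1, the smallest possible). Every PC share lay above every RACM share, PC p4 (27.8%) and RACM p2 (25.0%) being nearest. The ratio of Stim1 to Orai1 per kilobase was 0.889, 1.04 and 1.20 in PC and 0.306, 0.323 and 0.498 in RACM (n = 3 each; exact permutation p = 0.1). Shares and ratios were chosen after the values of the genes were seen, so their p-values are not separate support. They do not depend on how libraries were scaled.

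**Figure D2:**
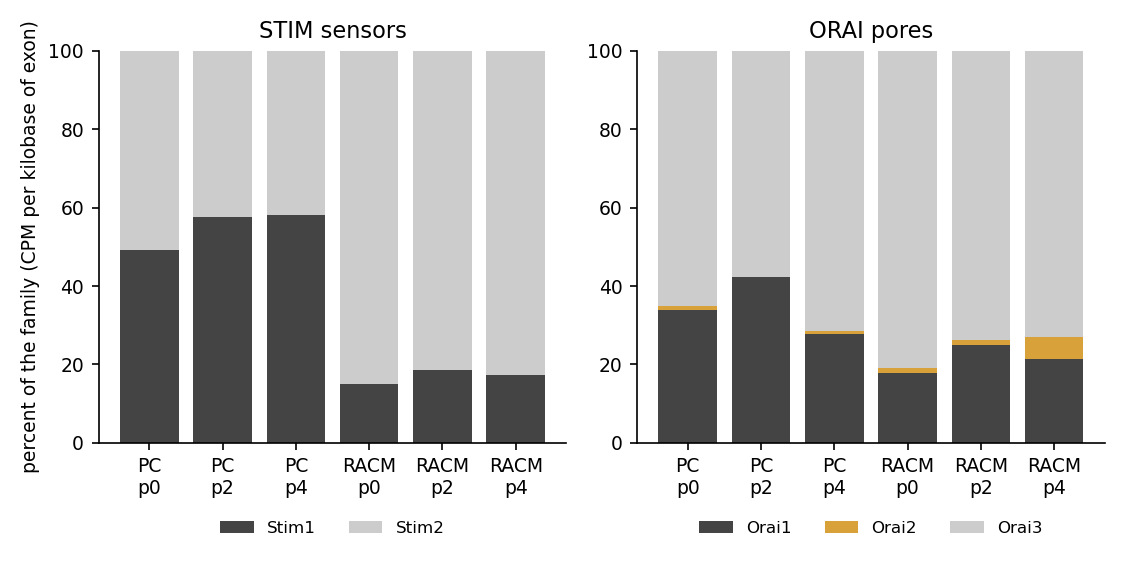
Stacked bars give each gene's percent of its family per kilobase of exon in each library, for Stim1 and Stim2 (left) and for Orai1, Orai2 and Orai3 (right). Stim1 makes up between 49.1% and 58.0% of the STIM genes in PC and between 14.9% and 18.5% in RACM, and Orai3 is the largest share of the ORAI genes in all 6 libraries.

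Trpm7, the channel fused to a kinase, was the most abundant of the 9 genes per kilobase in both cell types and was lower in PC. Trpm7 (ENSMUSG00000027365, chromosome 2 from 126791565 to 126876230 in mm10, minus strand) had 119, 118 and 120 CPM in PC libraries, against 188, 195 and 170 CPM in RACM libraries. The PC libraries were nearly alike, and all lay below the lowest RACM library. Mean levels were 119 ± 0.900 CPM in PC against 184 ± 12.8 CPM in RACM (SD, n = 3 each), a log2 fold change of -0.63 ± 0.14 (SE; edgeR adjusted p = 0.0296). With any 1 of the 6 libraries left out, the log2 fold change stayed between -0.69 and -0.59, but the call was lost each time (edgeR adjusted p from 0.0536 to 0.144). Among RACM libraries Trpm7 was highest in p2 and lowest in p4, while the fibroblast and macrophage sums rose from p0 over p2 to p4. The part of those cells in the Trpm7 level was not tested.

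Trpm4, the calcium-activated channel for monovalent cations, showed no detectable difference. Trpm4 (ENSMUSG00000038260, chromosome 7 from 45302632 to 45333780 in mm10, minus strand) had 36.3, 40.1 and 23.4 CPM in PC libraries, against 30.3, 33.7 and 31.0 CPM in RACM libraries. All RACM values fell within the PC range. The log2 fold change was 0.07 with a 95% interval from -0.44 to 0.58 (edgeR adjusted p = 0.899), and its sign turned without PC p2 (-0.07).

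Trpc1, a TRPC subunit that joins other TRPC subunits in mixed channels, showed none either. Trpc1 (ENSMUSG00000032839, chromosome 9 from 95705082 to 95750375 in mm10, minus strand) had 16.3, 10.1 and 13.5 CPM in PC libraries, against 11.5, 15.1 and 16.5 CPM in RACM libraries. The ranges overlapped over most of their width. The log2 fold change was -0.11 with a 95% interval from -0.73 to 0.51 (edgeR adjusted p = 0.868), and its sign turned without PC p2 (0.06).

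Trpc6, a TRPC channel that diacylglycerol opens, was not detectable at this depth. Trpc6 (ENSMUSG00000031997, chromosome 9 from 8544142 to 8680741 in mm10, plus strand) had 0 counts in all 3 PC libraries, and in RACM 0 counts in p0 and p2 and 1 count in p4. A count of 0 allows up to 3 counts, which is between 0.142 and 0.170 CPM in PC libraries and is 0.207 and 0.179 CPM in RACM p0 and p2. Trpc6 did not pass the filter and was not tested.

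Trpv2, a stretch-responsive channel that macrophages are known to express, was low and uneven. Trpv2 (ENSMUSG00000018507, chromosome 11 from 62574486 to 62600515 in mm10, plus strand) had 2.51, 0.113 and 0.898 CPM in PC libraries, against 2.42, 4.49 and 3.66 CPM in RACM libraries, from 45, 2 and 19 counts in PC and 35, 75 and 76 counts in RACM. PC p0 lay above RACM p0, so the ranges overlapped. The log2 fold change was -1.58 with a 95% interval from -3.53 to 0.37 (edgeR adjusted p = 0.353). Leaving out PC p0 moved it to -2.76 and leaving out PC p2 to -1.04, neither of which passed. The macrophage sums given above were higher in RACM; their part in the Trpv2 level was not tested.

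Piezo1, a pore opened by membrane tension and well known from endothelium, was lower in PC. Piezo1 (ENSMUSG00000014444, chromosome 8 from 122481698 to 122551329 in mm10, minus strand) had 3.68, 2.04 and 4.58 CPM in PC libraries, against 10.6, 17.2 and 21.6 CPM in RACM libraries. Every PC library lay below every RACM library. Mean levels were 3.43 ± 1.29 CPM in PC against 16.4 ± 5.53 CPM in RACM (SD, n = 3 each), a log2 fold change of -2.26 ± 0.41 (SE; edgeR adjusted p = 0.0133). Leaving out PC p0 ended the call (edgeR adjusted p = 0.0576), as did leaving out RACM p2 (adjusted p = 0.0593). Of the exon bases of Piezo1, 24.6% are shared with Ctu2, a gene of transfer RNA modification, and counting used neither strand nor the option for reads that overlap several genes, per the file header. Ctu2 itself had 6.30, 11.3 and 4.68 CPM in PC libraries and 4.90, 8.97 and 6.21 CPM in RACM libraries and was not called (edgeR adjusted p = 0.888).

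Piezo1 was set beside summed markers of other cells, and its library order matched that of the macrophage sum alone. The order of the 6 libraries by Piezo1 was exactly their order by summed macrophage markers, from PC p2 (9.56 CPM of markers) over PC p0 (28.3), PC p4 (54.5), RACM p0 (176) and RACM p2 (470) to RACM p4 (827). By fibroblast markers the orders differed: RACM p0, whose fibroblast sum of 1608 CPM lay below the 2183 CPM of PC p4, had 10.6 CPM of Piezo1, against 4.58 CPM in PC p4. Set against the fibroblast sum, Piezo1 stood at 4.33, 2.11 and 2.10 CPM per 1000 CPM of fibroblast markers in PC and at 6.57, 4.66 and 2.00 in RACM, and these ranges overlapped (n = 3 each, exact permutation p = 0.4, 2-sided). This test cannot give a p below 0.1 with 3 against 3 libraries, so no conclusion is drawn from it. The 8 endothelial markers summed to 82.8, 46.2 and 113 CPM in PC and to 106, 109 and 164 CPM in RACM, with overlapping ranges and no marker at 0 in all libraries of a cell type. Without RACM p2 and p4, the log2 fold change of Piezo1 was -1.63 and did not pass (edgeR adjusted p = 0.533, with the lone RACM library assumed to vary like the PC libraries). The part of macrophages, fibroblasts and endothelial cells in the Piezo1 level was not tested.

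Piezo2, the other Piezo channel, known from touch neurons, varied widely between libraries of the same cell type. Piezo2 (ENSMUSG00000041482, chromosome 18 from 63010213 to 63387183 in mm10, minus strand) had 1.56, 1.87 and 9.73 CPM in PC libraries, against 5.94, 19.0 and 39.3 CPM in RACM libraries. PC p4 lay above RACM p0, so the ranges overlapped, although PC was the lower at each library number. The log2 fold change was -2.28 ± 0.81 (SE) and did not pass (edgeR adjusted p = 0.140). With the library number as a replicate block it was -2.41 and passed (edgeR adjusted p = 0.00481), where 11.6% of all genes were called. It also passed with no filter on low counts (edgeR adjusted p = 0.00108), where 7.07% of all genes were called, and without PC p4 (-3.64, adjusted p = 0.0396). Without RACM p4 it was -1.50 and did not pass.

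The order of the 6 libraries by Piezo2 was exactly their order by summed fibroblast markers, from PC p0 (850 CPM of markers) over PC p2 (966), RACM p0 (1608), PC p4 (2183) and RACM p2 (3697) to RACM p4 (10770). Single fibroblast markers did not all keep this order. Dcn did, while Postn had 620 CPM in RACM p0 against 518 CPM in PC p4, and Pdgfra was lowest in RACM p0 (11.9 CPM). Of the 8 genes tested, only Piezo1 and Piezo2 matched the order of the fibroblast, macrophage or endothelial sum. Set against the fibroblast sum, Piezo2 stood at 1.84, 1.93 and 4.46 CPM per 1000 CPM of fibroblast markers in PC, and at 3.69, 5.15 and 3.65 in RACM (n = 3 each, exact permutation p = 0.3, 2-sided). PC p4 then lay within the RACM range, and PC p0 and p2 lay below it. With 3 against 3 libraries this test cannot give a p below 0.1, so no conclusion is drawn from it. Without RACM p2 and p4 the log2 fold change of Piezo2 was -0.44. The 10 neuron and glia markers summed to between 9.14 and 14.5 CPM in PC and to between 11.2 and 12.4 CPM in RACM, with Prph at 0 in PC and Snap25 at 0 in RACM. The part of fibroblasts in the Piezo2 level was not tested.

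**Figure D3:**
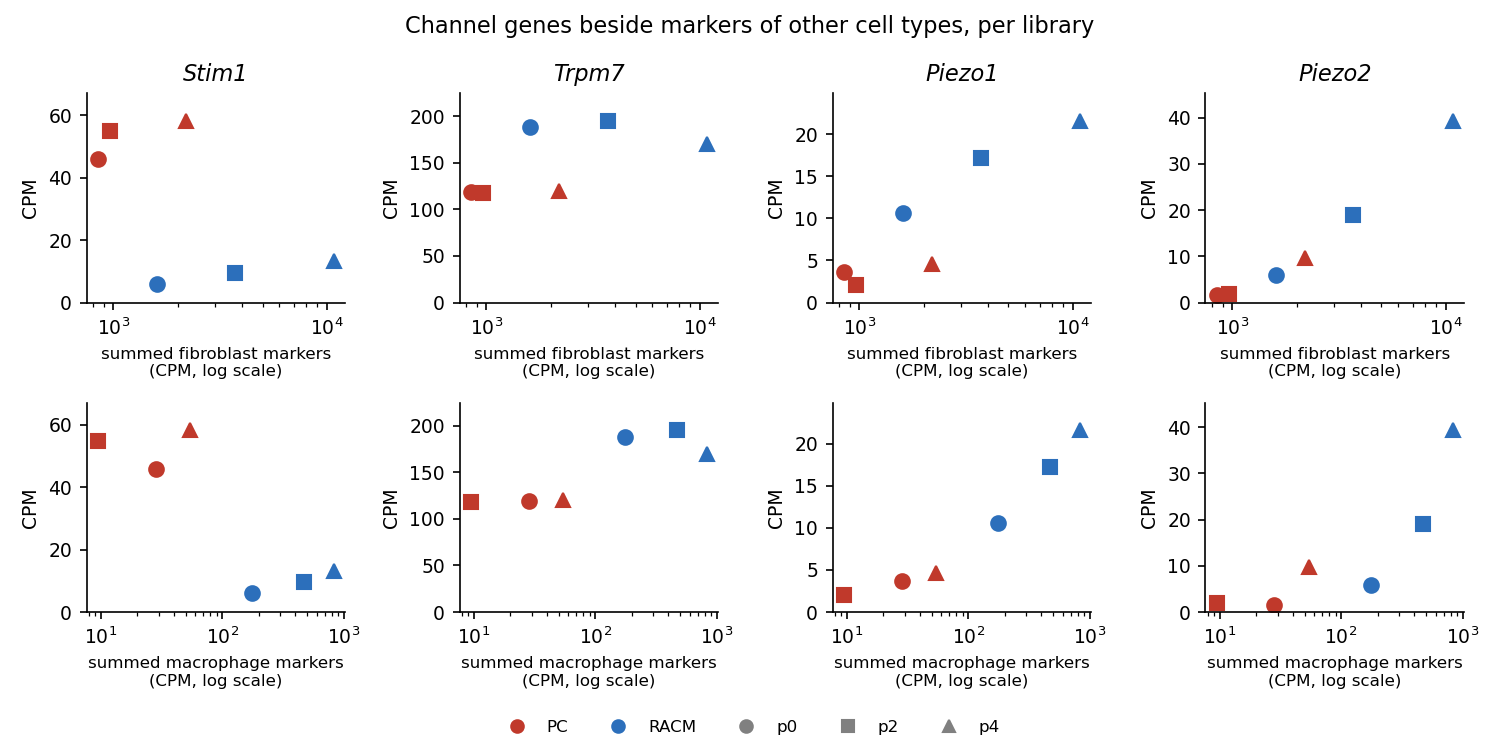
CPM of Stim1, Trpm7, Piezo1 and Piezo2 (vertical axes, from 0) against the summed CPM of 9 fibroblast markers (upper row) and of 10 macrophage markers (lower row), on log horizontal axes; red points are PC libraries, blue points RACM libraries, and shapes mark the library number. Piezo2 follows the order of the fibroblast sum, from 1.56 CPM in PC p0 to 39.3 CPM in RACM p4, and Piezo1 the order of the macrophage sum, from 2.04 CPM in PC p2 to 21.6 CPM in RACM p4.

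**Figure D4:**
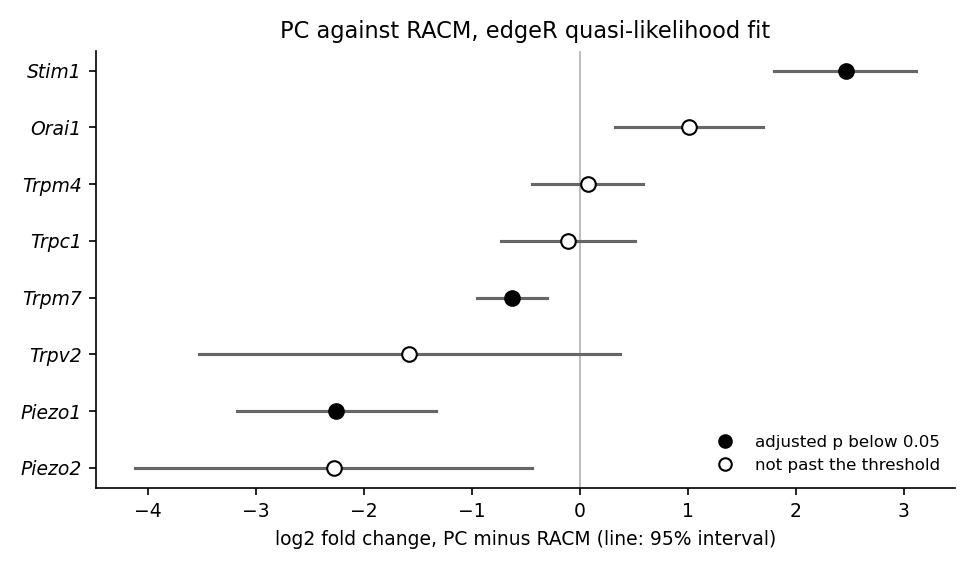
Log2 fold change, PC minus RACM, of the 8 genes tested, with 95% intervals; filled points passed an adjusted p of 0.05. Stim1 (2.46) lies above 0 and Trpm7 (-0.63) and Piezo1 (-2.26) below it, while the intervals of Orai1 and Piezo2 also leave out 0 without an adjusted p that passed.

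Ordered by level per kilobase, Stim1 held different places in PC and RACM. In PC the order was Trpm7 (10.5 ± 0.0795 CPM per kilobase), Stim1 (5.12 ± 0.618), Orai1 (4.91 ± 0.211), Trpm4 (3.07 ± 0.807), Trpc1 (1.66 ± 0.384), Piezo1 (0.346 ± 0.130), Trpv2 (0.262 ± 0.272) and Piezo2 (0.256 ± 0.270; SD, n = 3 each), with Trpc6 at 0. Among neighbours in that order, the ranges of Stim1 and Orai1, of Piezo1 and Trpv2, and of Trpv2 and Piezo2 overlapped, and the other ranges were separate. In RACM the order was Trpm7 (16.3 ± 1.13 CPM per kilobase), Trpm4 (2.92 ± 0.166), Orai1 (2.44 ± 0.488), Trpc1 (1.79 ± 0.318), Piezo1 (1.66 ± 0.557), Piezo2 (1.25 ± 0.978), Stim1 (0.927 ± 0.353) and Trpv2 (0.785 ± 0.232), with Trpc6 last. There Trpm7 stood clear of the rest, and each gene from Trpm4 to Trpv2 overlapped with the next. Divided by its unshared exon bases alone, Piezo1 stood at 0.458 CPM per kilobase in PC and 2.20 CPM per kilobase in RACM.

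Among 8732 tested genes of at least 10 CPM on average, the profiles over the 6 libraries nearest to Stim1 were those of Gabrg3, a GABA receptor subunit (root mean square difference 0.18 on the log2 scale), Sobp (0.22) and Itgb8, an integrin subunit (0.22). Gabrg3 averaged 42.1 ± 4.56 CPM in PC against 7.24 ± 1.47 in RACM (SD, n = 3 each). Nearest to Piezo1 were Vstm4 (0.22), Acsl5, which activates fatty acids (0.23), and the transcription factor gene Myc (0.25). Nearest to Trpm7 were the integrin subunit Itga5, the histone demethylase gene Kdm1b and the phosphodiesterase gene Pde3b (0.08 each). These are descriptions over 6 libraries that share a contrast.

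Other TRP channels were mostly low, and those tested were not called. Of 29 genes listed as TRP genes, Pkd1 among them, 12 were tested and Trpm7 alone was called, where edgeR called 7.27% of all genes tested. Of the 29, 3 had no count in any library (Trpc2, Trpm1 and Pkd2l1), and all exon bases of Trpc2 are shared with another gene. Of the 24 that are not among the 9 genes, 8 were tested and 0 called by edgeR, DESeq2 or limma-voom. DESeq2 called 12.8% of all genes. By edgeR 1 of the 8 had an unadjusted p below 0.05, against 21.1% of all genes tested. With so few genes, 0 calls cannot be told apart from these shares. Some 95% intervals were wide, as for Trpm2 (log2 fold change from -3.81 to 1.62). Trpm3 was not called, at 0.567 ± 0.205 CPM in PC against 1.64 ± 0.676 in RACM (SD, n = 3 each; edgeR adjusted p = 0.239). Of the channels of inner membranes, Pkd2 averaged 49.3 ± 7.76 CPM in PC against 50.6 ± 13.7 in RACM, and the lysosomal Mcoln1 18.6 ± 1.60 CPM in PC against 21.1 ± 4.58 in RACM (SD, n = 3 each).

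Among partners of store-operated entry, 3 of 18 genes tested rose and 1 fell in PC, against 3.69% and 3.57% of all genes tested. The list had a median log2 fold change of -0.26. With the replicate block 6 of its genes were called, Cracr2a and Homer2 being the added ones, where 11.6% of all genes were called. Cav1, the caveolin that shapes membrane caveolae, had 548, 367 and 350 CPM in PC libraries and 195, 136 and 99.4 CPM in RACM libraries (log2 fold change 1.56 ± 0.27, edgeR adjusted p = 0.0117). Every PC library lay above every RACM library. Jph2, which ties the surface membrane to the reticulum in heart muscle, averaged 138 ± 17.2 CPM in PC against 82.4 ± 10.7 in RACM (SD, n = 3 each; log2 fold change 0.74, edgeR adjusted p = 0.0328). Tmem178, which in mouse osteoclasts restrains store-operated entry, averaged 7.57 ± 0.962 CPM in PC against 1.87 ± 0.948 in RACM (SD, n = 3 each; edgeR adjusted p = 0.0419). The scaffold gene Homer1 fell, with 92.4, 89.1 and 73.5 CPM in PC libraries and 202, 157 and 118 CPM in RACM libraries (log2 fold change -0.90, edgeR adjusted p = 0.0372). Leaving out PC p0 (0.0514) or RACM p2 (0.0611) ended the edgeR call of Cav1. Calls of Tmem178 and Homer1 ended when any library but RACM p4 was left out (edgeR adjusted p from 0.0861 to 0.134 and from 0.0817 to 0.119), and that of Jph2 when any but PC p4 was (adjusted p from 0.0697 to 0.101) and with upper-quartile scaling (adjusted p = 0.0503).

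Among mechanically gated channels and Piezo partners, edgeR and limma-voom called 0 of 12 genes tested and DESeq2 called 1. Over all genes tested, edgeR called 7.27% and DESeq2 12.8%. By edgeR 1 gene of the list had an unadjusted p below 0.05, against 21.1% of all genes tested. That gene was Mdfic, whose protein binds Piezo channels, with 2.40, 6.33 and 1.94 CPM in PC libraries and 8.15, 7.96 and 17.9 CPM in RACM libraries (log2 fold change -1.68 ± 0.55, edgeR adjusted p = 0.109, DESeq2 adjusted p = 0.0191). Mdfic also passed in edgeR without PC p2 (-2.38, adjusted p = 0.0436) and with no filter (adjusted p = 0.0154). The ranges were separate, PC p2 (6.33) and RACM p2 (7.96) being nearest. Tmem120a was next by p (edgeR adjusted p = 0.473).

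A list upstream of TRPC channels and of store release held G protein, phospholipase C, diacylglycerol kinase and IP3 receptor genes. Of its 23 genes, 1 rose and 3 fell in PC, against 3.69% and 3.57% of all genes tested. The list had a median log2 fold change of -0.15. Plcb1, a phospholipase C that G proteins switch on, had 17.5, 13.7 and 25.5 CPM in PC libraries, against 2.00, 2.33 and 2.55 CPM in RACM libraries (log2 fold change 3.03 ± 0.34, edgeR adjusted p = 0.00132), and stayed called under all 16 alternatives. Its relative Plcb3 lay the other way, with 5.57, 4.69 and 5.24 CPM in PC libraries and 13.3, 16.6 and 19.5 CPM in RACM libraries (log2 fold change -1.67 ± 0.28, edgeR adjusted p = 0.00979). For neither gene did the ranges overlap. Plcd3, another phospholipase C, fell (18.9 ± 3.59 CPM in PC against 37.3 ± 8.62 in RACM, SD, n = 3 each; edgeR adjusted p = 0.0431), as did the IP3 receptor gene Itpr2 (27.4 ± 5.43 CPM in PC against 57.2 ± 8.95 in RACM; edgeR adjusted p = 0.0186). The call of Plcb3 ended without RACM p2 (edgeR adjusted p = 0.0538) and without both p4 libraries (adjusted p = 0.0584). That of Plcd3 ended without any 1 of PC p0, PC p2, RACM p0 and RACM p2 (edgeR adjusted p from 0.108 to 0.168) and with limma-voom (adjusted p = 0.0586). That of Itpr2 ended without any 1 of PC p0, PC p2, RACM p2 and RACM p4 (edgeR adjusted p from 0.0596 to 0.0766). Without RACM p2 and p4 together, the log2 fold change was -1.37 for Plcb3, -1.22 for Plcd3 and -0.90 for Itpr2. The part of other cell types in these levels was not tested.

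Downstream of calcium entry, 2 of 18 genes of calcineurin and NFAT signalling rose and 1 fell in PC. Of all genes tested, 3.69% rose and 3.57% fell. The list had a median log2 fold change of 0.14. With the replicate block 5 of its genes were called, Nfatc2 and Nfat5 being the added ones, where 11.6% of all genes were called. Rcan1, a calcineurin regulator that NFAT itself induces, had 126, 153 and 92.9 CPM in PC libraries and 71.2, 68.6 and 58.5 CPM in RACM libraries (log2 fold change 0.91 ± 0.20, edgeR adjusted p = 0.0304). Rcan2, a relative, averaged 315 ± 22.8 CPM in PC against 195 ± 27.7 in RACM (SD, n = 3 each; edgeR adjusted p = 0.0358). Leaving out any library but PC p4 ended the call of Rcan1 (edgeR adjusted p from 0.0504 to 0.111), and any but RACM p0 that of Rcan2 (adjusted p from 0.0656 to 0.146). Nfatc1, a transcription factor that endocardium is known to express, fell, with 9.48, 12.8 and 13.6 CPM in PC libraries and 29.0, 36.2 and 50.5 CPM in RACM libraries (log2 fold change -1.69 ± 0.26, edgeR adjusted p = 0.00691). Its call held with each single library left out and ended without RACM p2 and p4 together (-1.29, edgeR adjusted p = 0.235). The part of endothelial and immune cells in the Nfatc1 level was not tested.

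**Figure D5:**
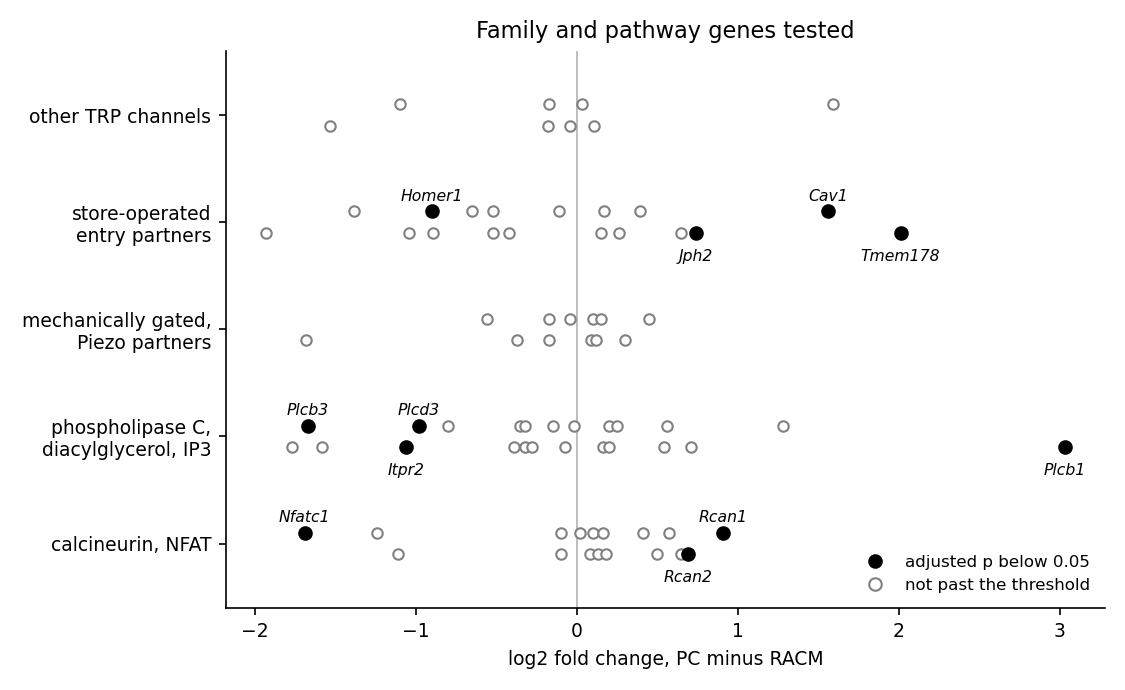
Log2 fold change, PC minus RACM (horizontal axis), of each tested gene in the 5 lists of family and pathway genes; filled, named points passed an adjusted p of 0.05, and the vertical spread within a list has no meaning. Among the called genes Plcb1 (3.03) and Tmem178 (2.01) lie farthest above 0 and Nfatc1 (-1.69) and Plcb3 (-1.67) farthest below.

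Over the 5 lists together, with each gene counted once, 11 of 77 genes tested were called, 6 higher and 5 lower in PC, where 7.27% of all genes tested were called. The median log2 fold change was 0.02, and 39 of the 77 genes had a positive value. Without RACM p2 and p4, the median log2 fold change over the genes of these lists was 0.01.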

How the data were processed

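RNA was turned into cDNA with the NuGEN Ovation V2 kit and read as paired 100-bp ends on a HiSeq 4000, per the labels' protocols. The authors deposited raw fragment counts per gene, made with featureCounts 2.0.1 over mm10 exons without a strand option, per the file headers. Trimmomatic, HISAT2 and edgeR appear, with no version, in the submitters' processing notes. Replicates are pools of hearts, and whether PC and RACM of a number shared a pool is not stated.

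Of 55487 Ensembl IDs, 55141 matched a symbol. Genes that passed filterByExpr (minimum count 10, minimum total 15) were tested in edgeR 4.0.16 (R 4.3.3) by the 2-sided quasi-likelihood test with TMM scaling and Benjamini-Hochberg adjustment. CPM use TMM-scaled library sizes, and CPM per kilobase the deposited exon length. SE is the log2 fold change over the root of F. The fit was tested on simulated data. The limit that a count of 0 allows (3 counts) covers counting error only.

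The genes and lists were chosen with earlier results of these data known. Named are the 9 genes, the called genes of each list (or its 2 of smallest p), and for each called gene among the 9 the 3 nearest profiles by root mean square difference of centred log2 values (CPM + 0.1). Other genes and ratios were chosen after their values were seen. Some genes that this rule or the marker lists cover are not reported here.

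Deviations from the group means correlated across genes at 0.156, 0.234 and 0.237 between libraries of the same number. Between libraries of different numbers these correlations were negative. Deviations from a group mean cancel out within the group, so this follows largely from the positive values and adds no evidence of pairing. No label says that the numbers pair libraries. The main fit and the permutation tests left them unpaired, and the replicate block was used only as an alternative. The alternatives used RLE or upper-quartile scaling, no filter, a 5 CPM filter, the replicate block, DESeq2 1.42.0 or limma-voom (limma 3.58.1). Others left out the most abundant gene, CT010467.1 (9.6% to 13.9% of counts), each library in turn, both p4 libraries or, chosen after seeing the data, RACM p2 and p4. ATAC-seq was not analysed here.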

Additional observations from a re-analysis of the deposited data

How the results depend on the processing

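For the 23 named genes that were tested, under up to 16 alternatives each, 290 outcomes kept their direction and their side of the threshold, 62 lost the call, 8 gained one and 4 changed sign. The sign changed for Trpc1 (0.20 without RACM p2 and p4, and from -0.28 to 0.06 with 1 library left out) and for Trpm4 (from -0.07 to 0.28 with 1 library left out), neither of them called. The 3 calls among the 9 genes became 1, Stim1, without RACM p2 and p4, and between 1 and 3 with 1 library left out, Stim1 alone without PC p0 or RACM p2. The 11 calls over the family lists became 17 with no filter, 17 with the replicate block, 18 with DESeq2, 2 without RACM p2 and p4, and between 2 and 10 with 1 library left out (2 without RACM p2, 3 without PC p0, 7 without PC p2 and 7 without RACM p0). The 1309 calls over all genes became 2339 with no filter, 2082 with the replicate block (1267 shared), 2304 with DESeq2, 734 without both p4 libraries, 263 without RACM p2 and p4, and between 511 and 1338 with 1 library left out (511 without RACM p2, 570 without PC p0, 727 without RACM p4 and 763 without PC p2). Fits without a library rest on fewer samples. Among the 9 genes, the block changed the call of Piezo2 only. Depth limits what can be said of Trpc6, with 1 count in all 6 libraries.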

Other observations

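Trpm6 and Orai2 were low and carried by a single RACM library, p4. All genes here are named after their values were seen. Trpm6, the nearest relative of Trpm7, had 0.111, 0 and 0.0472 CPM in PC libraries, against 0.207, 0.359 and 5.20 CPM in RACM libraries, and did not pass the filter on low counts; with no filter it was called by edgeR, the 1 called gene of the other TRP genes in that fit. Orai2 had 4.04 CPM in RACM p4 and less than 1 CPM in each of the other 5 libraries. Cracr2a, a calcium-binding regulator of ORAI channels, had 6.13, 9.73 and 3.73 CPM in PC libraries, against 16.1, 22.4 and 12.5 CPM in RACM libraries; the ranges were separate, and it missed the edgeR threshold (adjusted p = 0.0725) but was called with the replicate block, with no filter and by DESeq2. The ratio of Piezo2 to Piezo1 per kilobase was 0.246, 0.531 and 1.23 in PC and 0.325, 0.639 and 1.05 in RACM; in both cell types it was lowest in p0 and highest in p4.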
